A study of Homo sapiens with 8 samples.

Results

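The genes described here encode the enzymes that modify ribosomal RNA (rRNA) without a guide RNA or only partly with its help, together with TRMT112, the protein that stabilises some of them. They were chosen by name: NAT10, EMG1, DIMT1, BUD23, TRMT112, NOP2, NSUN5, METTL5, ZCCHC4 and TSR3. All 10 symbols matched a gene among the 58395 listed, and all 10 passed the filter on low counts. Their mRNAs were followed in OCI-AML3, a long-established cell line from human acute myeloid leukaemia. Cells carried a lentiviral short hairpin against FBL (shFBL) or a control hairpin (shCT). FBL encodes fibrillarin, the methyltransferase of the snoRNA-guided particles that methylate rRNA riboses. Cycloheximide was given to all cells, at 100 µg/mL for 15 min, to hold ribosomes in place on the mRNA. Part of each cleared lysate was kept as input RNA, and another part was run on a sucrose gradient for polysome RNA. The groups were polysome RNA labelled FBL knockdown, polysome RNA labelled WT (called control below), input RNA labelled FBL knockdown and input RNA labelled WT, with 2 libraries each and 8 in all. The hairpin sequences, the gradient fractions combined as polysome RNA and the origin of the libraries of a group (cultures, infections or repeat preparations) were not given in any source used here. Each p-value therefore rests on library-to-library spread, which may be technical in part. In every group this spread also holds a difference in FBL between libraries 1 and 2, given below.

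Most modified nucleotides of human rRNA are placed by small nucleolar RNAs, which guide fibrillarin to riboses and dyskerin to uridines. A few base modifications are instead made by stand-alone enzymes that recognise their site themselves, most of them near the decoding centre of the small subunit or the core of the large subunit. Several of these proteins are also needed to process the precursor rRNA, apart from their catalytic activity. On the 18S rRNA of the small subunit, NAT10 acetylates cytidines, DIMT1 dimethylates a pair of adenosines near the end of the molecule, BUD23 methylates a guanosine and METTL5 an adenosine. EMG1 and TSR3 act on the same 18S uridine: EMG1 methylates it once it has become pseudouridine, and TSR3 adds an aminocarboxypropyl group. On the 28S rRNA of the large subunit, NOP2 and NSUN5 methylate cytidines and ZCCHC4 methylates an adenosine. TRMT112 has no activity of its own and holds BUD23 and METTL5 stable. The libraries measure the mRNAs of these proteins, and no modification of rRNA was measured.

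The mRNAs fell into members with more and members with less signal in polysome RNA than in input RNA, and the members of these sets differ in base composition. The middle 40 codons (120 coding bases) of the 3 members with the largest excess in polysome RNA and of the 3 with a deficit are printed to show it. They are spliced coding sequence from GENCODE v29 on GRCh38, written in lower case, with capitals for a G or C at the last position of a codon.
TRMT112: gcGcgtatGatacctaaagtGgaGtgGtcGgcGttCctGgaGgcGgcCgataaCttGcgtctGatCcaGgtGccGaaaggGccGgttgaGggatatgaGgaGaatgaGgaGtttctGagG
TSR3: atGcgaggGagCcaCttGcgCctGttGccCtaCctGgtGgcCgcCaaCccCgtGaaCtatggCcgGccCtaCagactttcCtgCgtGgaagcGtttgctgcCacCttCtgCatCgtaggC
BUD23: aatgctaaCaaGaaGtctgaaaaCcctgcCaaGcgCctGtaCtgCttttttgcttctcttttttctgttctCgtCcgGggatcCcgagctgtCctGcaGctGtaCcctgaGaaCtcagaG
DIMT1: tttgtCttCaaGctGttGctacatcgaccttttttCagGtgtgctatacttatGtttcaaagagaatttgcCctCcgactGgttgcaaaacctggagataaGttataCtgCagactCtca
ZCCHC4: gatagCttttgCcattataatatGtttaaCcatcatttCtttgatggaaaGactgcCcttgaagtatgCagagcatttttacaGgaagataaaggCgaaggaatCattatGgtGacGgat
METTL5: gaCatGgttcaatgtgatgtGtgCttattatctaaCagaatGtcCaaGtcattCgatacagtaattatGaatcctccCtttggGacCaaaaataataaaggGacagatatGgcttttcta
The genomic spans, introns included where present, are chr11:64317082-64317317 (- strand) for TRMT112, chr16:1350233-1350924 (- strand) for TSR3, chr7:73690941-73692643 (+ strand) for BUD23, chr5:62394526-62398548 (- strand) for DIMT1, chr4:25345570-25349560 (+ strand) for ZCCHC4, chr2:169819624-169821191 (- strand) for METTL5. Of 40 codons, 28 ended in G or C in TRMT112, 32 in TSR3 and 22 in BUD23. In the members lower in polysome RNA the number was 15 in DIMT1, 14 in ZCCHC4 and 15 in METTL5.

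Gene counts ranged from 22.2 to 43.1 mega-counts per library, with the fewest in polysome knockdown 2. The FBL counts do not bear out the labels. FBL (chr19:39834458-39846414) was at 499 and 165 CPM (counts per mega-count of the library, after TMM scaling) in polysome knockdown libraries 1 and 2, against 498 and 163 CPM in polysome control libraries 1 and 2. In input RNA it was at 253 and 84.2 CPM in knockdown libraries, against 250 and 88.1 CPM in control libraries. FBL was thus high in every library numbered 1 and low in every library numbered 2, and it did not part the labels (log2 fold change 0.01, SE 0.69, adjusted p = 1 in polysome RNA, and -0.01, SE 0.69, adjusted p = 1 in input RNA). No library was moved, and knockdown and control below mean the libraries so labelled. The myeloid transcription factor SPI1 was at 743 to 1130 CPM in all libraries, while the granule enzyme MPO lay between 0 and 3.72 CPM. Of 5 lymphoid markers 3 had no read in any library, and of 5 erythroid and megakaryocyte markers 2 had none. The summed lymphoid markers came to 2.34 to 2.60 CPM in polysome knockdown libraries, against 0.799 to 0.926 CPM in polysome control libraries. In the input libraries of either label this sum lay between 0.549 and 1.09 CPM. The endothelial and leukocyte adhesion gene PECAM1, at 38.6 to 71.1 CPM, made up nearly all of the epithelial and stromal sum, and EPCAM had no read.

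Levels of the members spread widely. Per kilobase of merged exon, the highest in input RNA was TSR3, with a median of 139.5 CPM per kb over 4 input libraries, and next came TRMT112 with 79.9 CPM per kb. NAT10 (30.5), NSUN5 (21.7) and BUD23 (15.1 CPM per kb) followed, and the libraries of each of these 5 genes did not overlap with those of its neighbours. DIMT1 had 11.7, EMG1 9.79 and METTL5 8.28 CPM per kb. The ranges of DIMT1 and EMG1 overlapped, as did those of EMG1 and METTL5. ZCCHC4, at 2.57 CPM per kb, and NOP2, at 2.31 CPM per kb, were lowest and overlapped each other. On this measure the cofactor TRMT112 was thus above both of its rRNA partners BUD23 and METTL5 in every input library. The order and the gaps rest on the length used: merged exons of BUD23 hold 7944 bases, its longest coding transcript 1219. Without division by length, TRMT112 averaged 126 CPM and BUD23 123 CPM in input control libraries. In input knockdown libraries they averaged 142 and 117 CPM. In polysome RNA the first 5 kept that order, from 321.7 CPM per kb for TSR3 to 27.6 CPM per kb for BUD23. EMG1 came next at 16.7 CPM per kb. METTL5 (4.98) overlapped DIMT1 (4.69), and NOP2 (2.74) overlapped ZCCHC4 (1.03 CPM per kb).

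**Figure D1:**
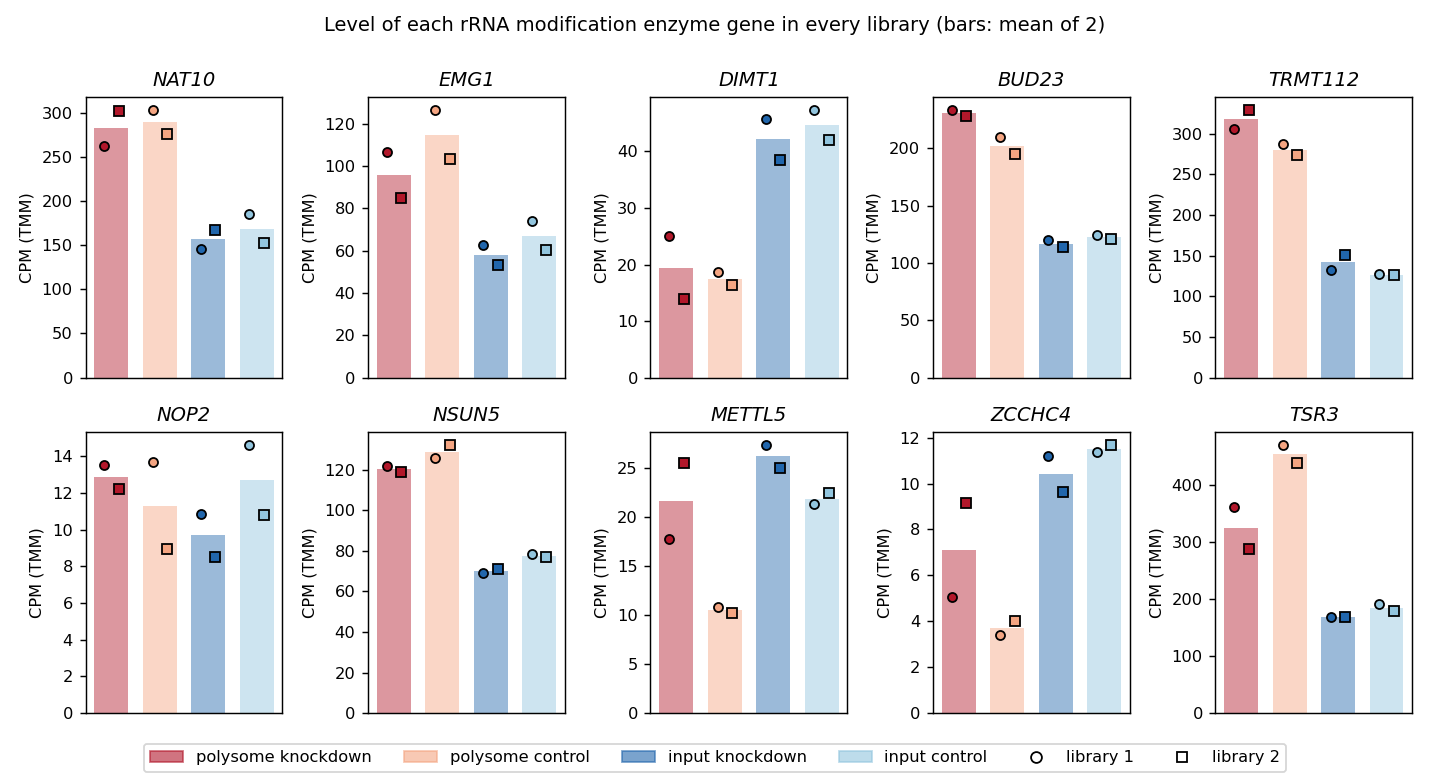
CPM after TMM scaling (vertical axis, from 0, a separate scale for each gene) of the 10 members in the libraries of polysome knockdown, polysome control, input knockdown and input control; points are single libraries and bars the mean of 2. TRMT112 and TSR3 stand higher in every polysome library than in any input library, and DIMT1 and ZCCHC4 lower.

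Polysome against input RNA asks how far each mRNA is found on polysomes relative to the other mRNAs of the same libraries. Of the 10 members, 6 were higher in polysome RNA and 3 were lower at an adjusted p under 0.05 (edgeR quasi-likelihood test over 16503 genes). Over all genes tested 20% were called higher and 22.8% lower, 42.9% in all, with 50.6% at an unadjusted p under 0.05. The members' median log2 fold change was 0.75, beside -0.22 over all genes. The fit compares the mean of both polysome groups with the mean of both input groups, so it sets no label against the other. Its SE and p-values still rest on the spread within the groups as labelled. All 9 calls remained when any single library was left out. In bulk RNA, a difference between fractions in some of the cells cannot be told from a smaller one in all of them.

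Among the enzymes of the small subunit, NAT10 and BUD23 were higher in polysome RNA and DIMT1 was lower, a call lost with a correction for GC content (-0.25, adjusted p = 0.222). NAT10 (chr11:34105602-34147670), the cytidine acetyltransferase, which also acts on tRNA, was at 263 and 302 CPM in polysome knockdown and 303 and 276 CPM in polysome control libraries, against 146 and 168 CPM in input knockdown and 185 and 153 CPM in input control libraries. Every polysome library was above every input library, and the log2 fold change came to 0.81 (SE 0.09, adjusted p = 6.39e-05). BUD23 (chr7:73683025-73705161) stood at 233 and 229 CPM in polysome knockdown and 210 and 195 CPM in polysome control libraries, against 120 and 114 CPM in input knockdown and 124 and 121 CPM in input control libraries. The groups did not overlap, and the fit gave a log2 value of 0.85 (SE 0.07, adjusted p = 8.77e-06). DIMT1 (chr5:62387254-62403939), the adenosine dimethyltransferase, was on the other side, at 25.0 and 13.8 CPM in polysome knockdown and 18.7 and 16.3 CPM in polysome control libraries, against 45.8 and 38.5 CPM in input knockdown and 47.3 and 42.0 CPM in input control libraries. Its log2 fold change was -1.23 (SE 0.18, adjusted p = 3.91e-04), the lowest of the 10 members.

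The enzymes that share the hypermodified 18S uridine moved the same way. EMG1 (chr12:6970893-6997428) was at 107 and 84.9 CPM in polysome knockdown and 126 and 103 CPM in polysome control libraries, against 62.5 and 53.3 CPM in input knockdown and 74.0 and 60.2 CPM in input control libraries. TSR3 (chr16:1349240-1351911) stood at 362 and 288 CPM in polysome knockdown and 470 and 438 CPM in polysome control libraries, against 168 and 168 CPM in input knockdown and 191 and 179 CPM in input control libraries. For both genes every polysome library was above every input library. The log2 fold change was 0.75 for EMG1 (SE 0.12, adjusted p = 6.35e-04) and 1.12 for TSR3 (SE 0.08, adjusted p = 5.47e-06).

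TRMT112 was higher in polysome RNA, as was its partner BUD23, while its partner METTL5 was lower only without a correction for GC content. TRMT112 (chr11:64316460-64318084) was at 306 and 329 CPM in polysome knockdown and 287 and 274 CPM in polysome control libraries, against 133 and 151 CPM in input knockdown and 127 and 126 CPM in input control libraries. Its log2 fold change of 1.16 (SE 0.07, adjusted p = 2.46e-06) was the highest of the 10 members, and its 4 library pairs lay within 1.12 and 1.20. METTL5 (chr2:169810081-169824931) was at 17.8 and 25.5 CPM in polysome knockdown and 10.8 and 10.2 CPM in polysome control libraries, against 27.3 and 25.0 CPM in input knockdown and 21.2 and 22.5 CPM in input control libraries. The groups overlapped, because polysome knockdown 2 lay among the input libraries. The log2 fold change of METTL5 was -0.67 (SE 0.16, adjusted p = 0.00626), and with the GC correction it was 0.17 (adjusted p = 0.501).

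Of the large-subunit enzymes, NSUN5 (chr7:73302517-73308867) was higher in polysome RNA, at 122 and 119 CPM in knockdown and 126 and 132 CPM in control libraries, against 69.1 and 71.3 CPM in input knockdown and 78.4 and 77.0 CPM in input control libraries. The groups did not overlap, and the log2 fold change was 0.75 (SE 0.08, adjusted p = 2.89e-05). ZCCHC4 (chr4:25312785-25370383) was lower, at 5.07 and 9.16 CPM in polysome knockdown and 3.42 and 4.00 CPM in polysome control libraries, against 11.2 and 9.61 CPM in input knockdown and 11.4 and 11.7 CPM in input control libraries. Polysome knockdown 2 came close to the input libraries without overlapping them. The log2 fold change of ZCCHC4 was -1.09 (SE 0.25, adjusted p = 0.00480), on 118 to 455 counts per library, and it was not called with the GC correction. NOP2 (chr12:6556863-6568691), the cytidine methyltransferase also known as a proliferation antigen, was at 13.5 and 12.2 CPM in polysome knockdown and 13.7 and 8.93 CPM in polysome control libraries, against 10.9 and 8.52 CPM in input knockdown and 14.6 and 10.8 CPM in input control libraries. The groups overlapped, and NOP2 was not called (log2 fold change 0.12, 95% interval -0.35 to 0.59, adjusted p = 0.682).

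In all, every polysome library was above every input library for 6 members (17.7% of all genes tested) and below every one for 2, DIMT1 and ZCCHC4 (22.7%). In each of the 4 pairs of same label and number, the polysome library was above its input library for the same 6 members (23.9% of all genes) and below it for the same 2 (32.1%). Where each polysome library was set against the input library of the same label and number, the knockdown 2 pair stood apart for METTL5 and ZCCHC4. METTL5 had a difference in log2 CPM of -0.62 and 0.03 in knockdown pairs 1 and 2, against -0.98 and -1.14 in control pairs. For ZCCHC4 it was -1.14 and -0.07 in knockdown pairs, against -1.72 and -1.53 in control pairs. The median over all genes was -0.16 and -0.23 in the same knockdown pairs, against -0.15 and -0.09 in the control pairs.

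**Figure D2:**
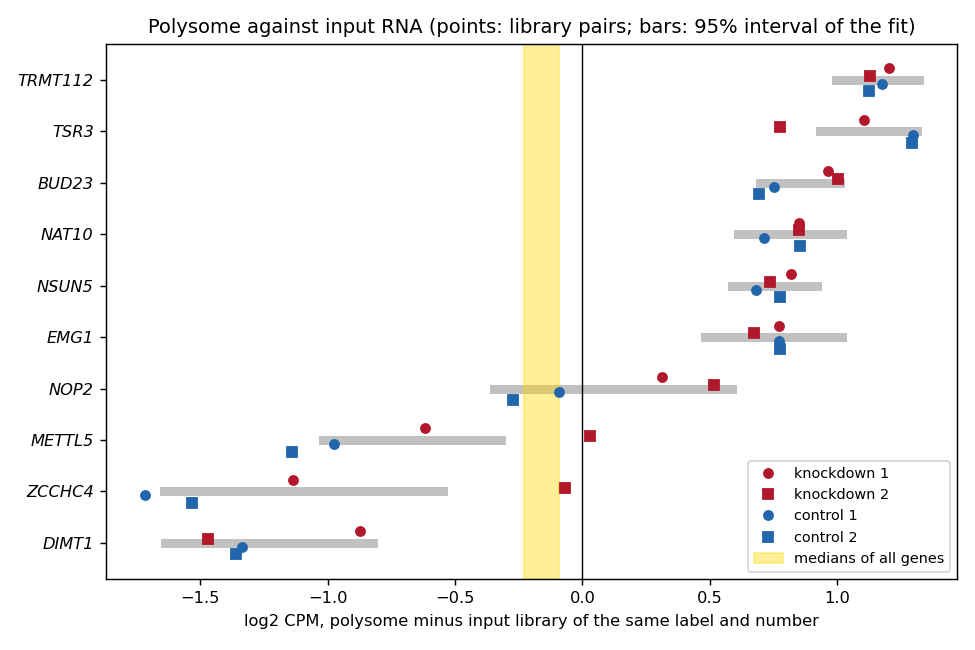
Difference in log2 CPM between the polysome and the input library of the same label and number (horizontal axis) for each member, with knockdown pairs in red, control pairs in blue, the 95% interval of the fit as a grey bar and the range of the all-gene medians as a yellow band. TRMT112 is the tightest, at 1.12 to 1.20, while METTL5 reaches 0.03 and ZCCHC4 -0.07 in knockdown pair 2.

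The direction of the members went with their GC content. The longest coding transcript held 37.8% G and C in DIMT1, 40.1% in METTL5 and 42.4% in ZCCHC4, the 3 members lower in polysome RNA. In the 6 higher members it held between 50.4% (EMG1) and 67.1% (TSR3), and in NOP2 55.0%. At the last position of the codons the share was 37.3% to 43.5% in the 3 lower members and 53.3% to 82.1% in the other 7. The same held across the transcriptome: among 13085 protein-coding genes the log2 fold change correlated with GC content at r = 0.39, a description across genes of the same libraries. In the GC-poorest quartile of coding genes (31.8% to 42.9%) the median log2 fold change was -0.80, with 1.71% called higher and 53.4% lower. In the GC-richest quartile (58.0% to 74.7%) it was 0.57, with 50% called higher and 3.33% lower.

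With the counts corrected for GC content in each library, a fit chosen after seeing the data, no member was called lower. The log2 fold change of DIMT1 became -0.25 (adjusted p = 0.222), of ZCCHC4 -0.40 (adjusted p = 0.274) and of METTL5 0.17 (adjusted p = 0.501), which turns its direction. The 6 higher calls remained. The value stood at 1.03 for TRMT112, 0.88 for BUD23, 0.87 for EMG1 and 0.84 for NAT10, while that of TSR3 dropped to 0.52 (adjusted p = 0.00102) and that of NSUN5 to 0.28 (adjusted p = 0.0184). Over all genes this fit called 3203 higher and 1771 lower, beside 3306 higher and 3766 lower without the correction.

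**Figure D3:**
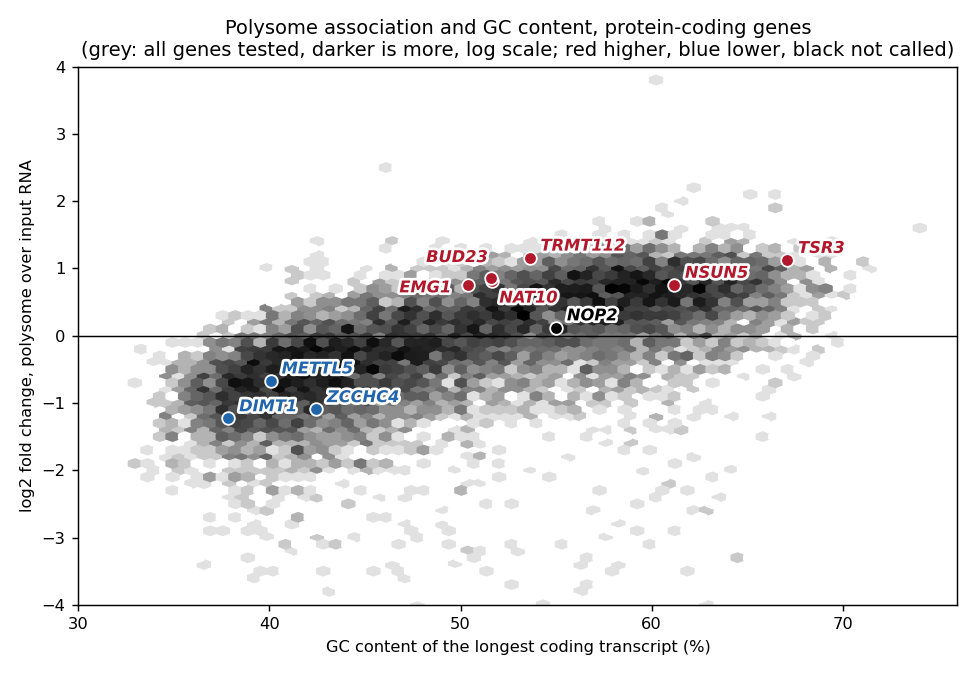
GC content of the longest coding transcript in percent (horizontal axis) against the log2 fold change of polysome over input RNA (vertical axis), with 13085 protein-coding genes as grey bins, darker for more genes on a log scale, of which 315 lie beyond the plotted range of 4 on either side. The 3 members lower in polysome RNA (blue) lie at 37.8% to 42.4% GC, and the 6 higher ones (red) at 50.4% to 67.1%.

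Knockdown against control in polysome RNA asks whether the hairpin label goes with the polysome level of the members. None of the 10 members was called, and 145 of 16503 genes were (0.879%, edgeR), 41 higher (0.248%) and 104 lower (0.63%). With upper quartile scaling those numbers were 53 higher and 48 lower. At an unadjusted p under 0.05 stood 2987 genes (18.1%), among them METTL5, ZCCHC4 and TSR3. The libraries of the labels did not overlap for 4 members that were higher with the knockdown label (15.4% of all genes) and for 2 that were lower (23.6%). The summed lymphoid markers given above moved with this label in polysome RNA, and their part in these values was not tested.

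The adenosine methyltransferases METTL5 and ZCCHC4 had the largest differences. METTL5 averaged 21.6 ± 5.49 CPM in polysome knockdown libraries and 10.5 ± 0.422 CPM in polysome control libraries (SD, n = 2 each), with a log2 fold change of 1.04 (95% interval 0.54 to 1.55, adjusted p = 0.0633). ZCCHC4 averaged 7.12 ± 2.89 CPM in polysome knockdown libraries and 3.71 ± 0.411 CPM in polysome control libraries, with a log2 fold change of 0.93 (95% interval 0.15 to 1.71, adjusted p = 0.206). Among polysome libraries both were highest in knockdown 2, the shallowest library, which had 529 METTL5 and 190 ZCCHC4 counts. TSR3, the aminocarboxypropyl transferase, went the other way, with 325 ± 52.3 CPM in polysome knockdown libraries and 454 ± 22.3 CPM in polysome control libraries. Its log2 fold change was -0.48 (95% interval -0.75 to -0.22, adjusted p = 0.0854).

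Some other fits called METTL5 or TSR3, and each of these called more genes in all than the main fit. METTL5 was called without the low-count filter (adjusted p = 0.00140), with a filter at a mean of 10 CPM (0.0364) and by DESeq2 (adjusted p = 0.00243). TSR3 was called without the filter (adjusted p = 0.0228), by DESeq2 (adjusted p = 0.00789) and by limma-voom (adjusted p = 0.0477). Over all genes 1117 of 22560 were called without the filter and 326 of 8194 at a mean of 10 CPM. DESeq2 called 1203 of 16503 genes and limma-voom 297 of 16503, beside 145 of 16503 in the main fit. With polysome knockdown 1 left out, the log2 fold changes were 1.29 for METTL5, 1.31 for ZCCHC4 and -0.66 for TSR3. The lone knockdown library is then assumed to vary like the other groups. With polysome knockdown 2 left out instead, the values were 0.76 for METTL5, 0.45 for ZCCHC4 and -0.33 for TSR3. With the GC correction TSR3 stood at -0.28 (adjusted p = 0.280) and METTL5 at 1.16 (adjusted p = 0.0814).

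For the other 7 members the 95% intervals of the log2 fold change included 0. The estimate was 0.19 for BUD23 (-0.03 to 0.41) and 0.18 for its cofactor TRMT112 (-0.05 to 0.41), whose libraries did not overlap between labels. NSUN5 was at -0.10 (-0.34 to 0.14), also without overlap. NAT10 was at -0.04 (-0.32 to 0.25) and EMG1 at -0.26 (-0.64 to 0.12). DIMT1, at 0.16 (-0.42 to 0.73), and NOP2, at 0.19 (-0.48 to 0.85), had the widest intervals of the 7.

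In input RNA the same labels were compared for the abundance of each mRNA. No member and no other gene was called (0%, edgeR), with 744 genes (4.51%) at an unadjusted p under 0.05, 76 genes called by DESeq2 and 3 by limma-voom. The members' log2 fold changes ranged from -0.39 (NOP2) to 0.26 (METTL5), with a median of -0.12 beside 0.00 over all genes. METTL5 averaged 26.1 ± 1.59 CPM in input knockdown libraries and 21.9 ± 0.857 CPM in input control libraries (SD, n = 2 each). TSR3 averaged 168 ± 0.153 CPM in input knockdown libraries and 185 ± 8.83 CPM in input control libraries. The libraries of the labels did not overlap for 2 members higher with the knockdown label, TRMT112 and METTL5 (21.1% of all genes), and for 4 lower, BUD23, NSUN5, ZCCHC4 and TSR3 (20.3%).

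The polysome change minus the input change asks whether polysome association differs with the label. No gene was called (0%, edgeR), with 1046 genes (6.34%) at an unadjusted p under 0.05, 10 genes called by DESeq2 and none by limma-voom. METTL5 had the smallest p of the members, with a difference of 0.79 in log2 fold change (95% interval 0.09 to 1.49, adjusted p = 0.767). ZCCHC4 was at 1.08 (95% interval -0.01 to 2.16, adjusted p = 0.773), BUD23 at 0.26 (-0.05 to 0.57, adjusted p = 0.778) and TSR3 at -0.34 (-0.72 to 0.03, adjusted p = 0.777). The other 6 members ranged from -0.05 (EMG1) to 0.58 (NOP2).

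**Figure D4:**
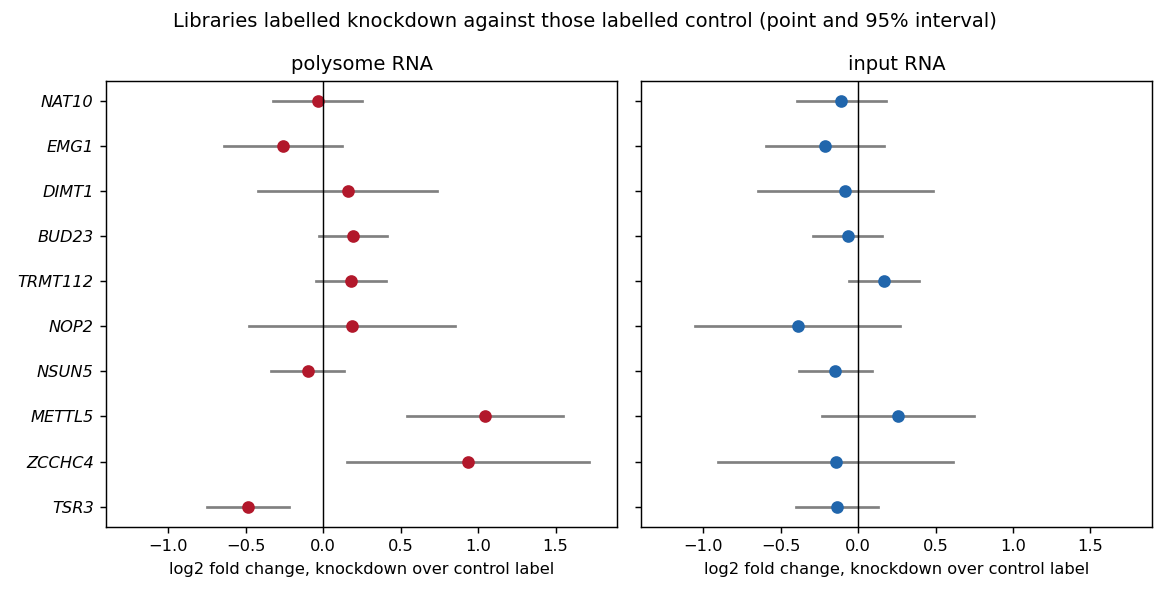
Log2 fold change of knockdown over control label (horizontal axis) for each member in polysome RNA (left, red) and input RNA (right, blue), with the 95% interval of the fit. In polysome RNA the intervals of METTL5 (0.54 to 1.55), ZCCHC4 (0.15 to 1.71) and TSR3 (-0.75 to -0.22) leave out 0, without passing the adjusted threshold, and in input RNA all 10 intervals include 0.

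Because FBL differed by library number and not by label, the members' differences between the libraries of each group are given as a description, with no test. In log2 CPM, library 2 minus library 1, FBL was at -1.59 in polysome knockdown, -1.61 in polysome control, -1.58 in input knockdown and -1.50 in input control. The sign was shared by all groups for 4 members, EMG1, DIMT1, BUD23 and NOP2, each lower in library 2 of all 4 groups (12.1% of all genes). No member was higher in library 2 of all 4 groups (10.5% of all genes). EMG1 lay between -0.23 and -0.33. NOP2 ranged from -0.14 to -0.61, DIMT1 from -0.17 to -0.85 and BUD23 from -0.03 to -0.10. NAT10 and TRMT112, by contrast, were higher in library 2 under the knockdown label and lower under the control label. In polysome and input RNA NAT10 was at 0.20 and 0.20 with the knockdown label, and at -0.13 and -0.28 with the control label. TRMT112 was at 0.11 and 0.18 with the knockdown label, and at -0.07 and -0.01 with the control label.

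**Figure D5:**
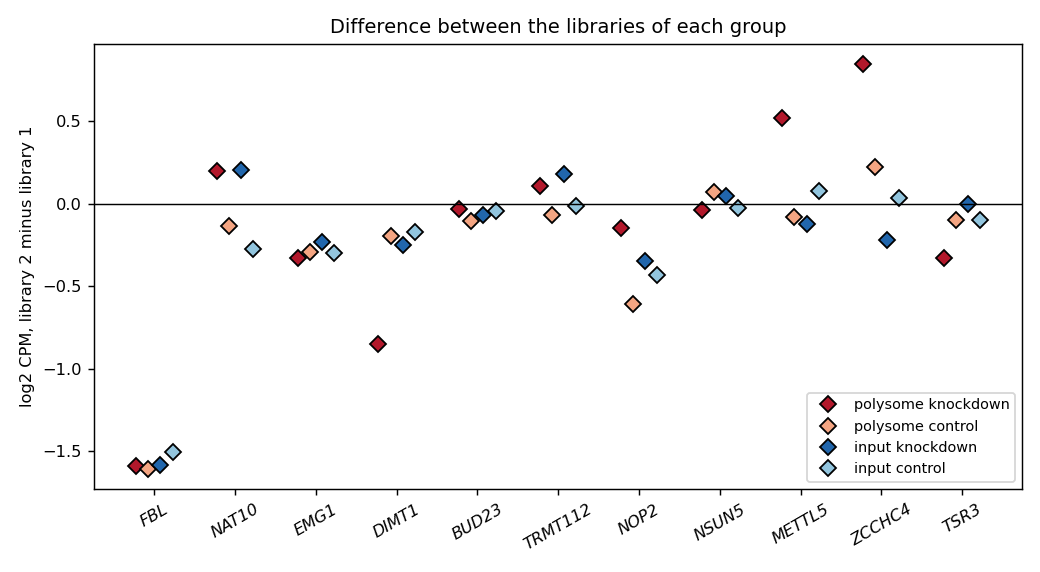
Difference in log2 CPM between library 2 and library 1 of each group (vertical axis) for FBL and the 10 members, with 1 point for each of the 4 groups. FBL lies between -1.50 and -1.61 in every group, and the largest differences among the members are those of DIMT1 (-0.85) and ZCCHC4 (0.85) in polysome knockdown.

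Related genes were counted in the comparison of polysome with input RNA, from lists chosen by function. Over all genes 20% were called higher and 22.8% lower, and several of these short lists lie near those shares. Of 5 other partners of TRMT112, which modify tRNA, translation factors or other RNAs, 3 were lower and none higher: TRMT11 (log2 fold change -1.61), THUMPD2 (-1.41) and ALKBH8 (-0.92), with a list median of -0.92. TRMT112 itself was at 1.16. Among 3 other proteins of cytosolic rRNA modification, the adenosine methyltransferase RRP8 was higher (0.92), while FTSJ3, whose yeast counterpart methylates a ribose of the large subunit (0.20), and THUMPD1, the adaptor of NAT10 for tRNA (-0.45), were not called. Of 8 core proteins of the guided particles, 3 were higher (NHP2 0.98, DKC1 0.49, SNU13 0.39) and 2 lower (NOP58 -1.25, NOP56 -0.90). FBL itself was not called in the fit over all libraries (0.97, adjusted p = 0.141). Within pairs of the same label and number it was higher in polysome RNA by 0.98 and 0.97 in knockdown pairs 1 and 2, against 0.99 and 0.89 in control pairs. It was called without the low-count filter (0.93, adjusted p = 5.64e-24) and with polysome knockdown 2 (1.26, adjusted p = 0.0418), input knockdown 1 (1.44, adjusted p = 0.0412) or input control 1 (1.40, adjusted p = 0.0339) left out. NOP58 and NOP56 are the partners of fibrillarin in the box C/D particle, and DKC1 is the pseudouridine synthase of the box H/ACA particle.

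Among 8 enzymes of mitochondrial rRNA, 2 were higher (MRM3 1.08, MRM1 0.64) and 3 lower (METTL15 -1.93, TRMT61B -1.45, TFB1M -0.58). TFB1M, which dimethylates the rRNA of the small mitochondrial subunit, passed narrowly (adjusted p = 0.0446). Of the other NSUN cytidine methyltransferases, 4 of 5 were measured and 2 were lower (NSUN6 -1.0, NSUN3 -0.78). Of 7 factors of late small-subunit assembly, BYSL was higher (1.00), and LTV1 (-1.76), RIOK1 (-0.51) and RIOK2 (-0.48) were lower. Of 5 proteins of adenosine methylation in other RNAs, METTL4 (-0.85) and METTL14 (-0.71) were lower. No gene of these lists was called in the other 3 comparisons.

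Many of the calls in these lists changed with the correction for GC content, and the cause was not tested. With the GC correction, read for the lists after seeing the data, TRMT11 (-0.93), THUMPD2 (-0.58), NOP56 (-1.17), METTL15 (-1.01) and LTV1 (-1.04) were still called lower. RRP8 (1.30), NHP2 (0.65), DKC1 (0.85), MRM3 (0.85) and BYSL (0.68) were still called higher. ALKBH8, NOP58, SNU13, MRM1, TRMT61B, TFB1M, NSUN6, NSUN3, RIOK1, METTL4 and METTL14 were no longer called. RIOK2 turned to 0.63 (adjusted p = 0.0138) and was called higher, as were N6AMT1 (0.72, adjusted p = 0.0435) and METTL16 (0.46, adjusted p = 0.0145), which had not been called before.

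The genes whose log2 CPM was most like that of 2 members across the 8 libraries were looked up among 8158 genes. For NAT10 they were ABHD15 (Pearson r = 0.992), NR1H3 (r = 0.991) and ZNF526 (r = 0.991). For TRMT112 they were NMRAL1, PFDN5 and FAU, each at r = 0.998. These values describe 8 libraries that share a split into polysome and input RNA.

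Some counts carry limits of annotation. Reads that fall on exons of overlapping genes may have been left out or assigned to either, and no source used here gives the strand setting. NOP2 shares 54.4% of its exon bases with ENSG00000285238 on the same strand, which had no read in any library, so the level of NOP2 may be understated. EMG1 shares 49.5% with LPCAT3 on the opposite strand, which had 0 counts in polysome libraries and 7 to 25 in input libraries. METTL5 shares 20.0% with SSB, TRMT112 17.5% with ESRRA, TSR3 16.3% with BAIAP3 and BUD23 8.33% with STX1A, all on the opposite strand. NSUN5 has near-identical copies on chromosome 7: NSUN5P1 had 108 to 646 counts and NSUN5P2 0 to 53, beside 2328 to 4791 for NSUN5, whose value is therefore uncertain. The processed pseudogenes of DIMT1, TRMT112 and METTL5 had no count except TRMT112P6, with 0 to 7.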

How the data were processed

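The authors deposited 1 file of unnormalised read counts for each library, made with Trimmomatic 0.38, Bowtie2 and HTSeq 0.11.2 on GRCh38, per the submitters' processing notes. No source used here gives the Bowtie2 version, annotation release, read layout or strand setting. Since Bowtie2 does not split reads at introns, those that cross exon junctions can go missing or land on pseudogenes. Lines that name no gene held 13.2% to 15.0% of reads and stayed out of library sizes and tests. Counts were fitted with edgeR 4.0.16 (R 4.3.3; quasi-likelihood F test, TMM, filterByExpr) in 1 model of 4 groups with 4 residual degrees of freedom. Benjamini-Hochberg adjustment covered all 16503 genes tested, with an adjusted p under 0.05 as the threshold for a call. SE is that of the log2 fold change. Values are relative within a library, and a shift of all mRNAs together would go unseen. The fit was tested on simulated data. Alternatives used DESeq2 1.42.0 and limma 3.58.1 (voom), other scalings and filters, blocks and left-out libraries. GENCODE v29 (58275 of 58395 identifiers found) gave positions, exon lengths, GC content and coding sequence. All 10 members, FBL, the called genes of the lists and the 3 genes most like NAT10 and TRMT112 (mean of at least 10 CPM) are named. The members and lists were chosen with earlier results of these data known.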

Additional observations from a re-analysis of the deposited data

Results flagged for a closer look

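BUD23 and ZCCHC4 drew attention because the labels separated their libraries in opposite directions in polysome and in input RNA. Of all genes tested, 15.4% were so separated and higher with the knockdown label in polysome RNA, and 20.3% lower in input RNA. The share of genes that did both was not counted, and BUD23 and ZCCHC4 were picked by these same values. For BUD23 both knockdown libraries were above both control libraries in polysome RNA (log2 fold change 0.19) and below both in input RNA (-0.07), a difference of 0.26 (SE 0.14, edgeR adjusted p = 0.778). For ZCCHC4 the values were 0.93 in polysome RNA and -0.15 in input RNA, a difference of 1.08 (SE 0.49, edgeR adjusted p = 0.773). The difference was tested with the interaction term of the fit, and neither gene passed the threshold.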

How the results depend on the processing

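With 2 libraries per group the number of genes called for the label was unstable, and low counts (ZCCHC4, NOP2) left wide intervals. All 9 member calls between polysome and input RNA held under other scalings, without the filter, with DESeq2, limma-voom and each left-out library, with ZCCHC4 not tested at a mean of 10 CPM. With the GC correction, added after seeing the data, 6 of the 9 remained and the 3 lower calls were lost, with or without the lysate block. The cause of the changes listed next was not tested.

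For knockdown against control in polysome RNA, 145 genes and 0 members were called. The numbers were 1117 genes and 2 members without the low-count filter, 326 and 1 at a mean of 10 CPM, 1203 and 2 with DESeq2, 297 and 1 with limma-voom, 0 genes with only the 4 polysome libraries, and 6 genes with the GC correction. Left-out libraries gave 0 to 1455 genes and 0 to 3 members. The count was 1455 without polysome knockdown 1, 41 without polysome knockdown 2, 63 without polysome control 1 and 0 without polysome control 2. Without an input library it was 5 to 44. In input RNA (0 genes called) it was 83 without the filter, 76 with DESeq2, 3 with limma-voom and 0 to 1 with a library left out. For the difference between fractions (0 genes called) it was 55 without the filter, 10 with DESeq2 and 0 to 55 with a library left out (55 without polysome knockdown 1, 16 without polysome control 1).

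As a replicate block, the library number gave 1053 genes and 2 members in polysome RNA (METTL5 1.03, adjusted p = 0.0223, and TSR3 -0.49, adjusted p = 0.0112) and 66 genes in input RNA. The lysate as a block gave 9 genes for the difference between fractions, and 25 with the GC correction. The numbers were not taken as pairs across labels, since deviations of same-numbered libraries correlated at 0.09 in input RNA and 0.02 in polysome RNA. Between fractions they correlated at 0.07 under either label. The main fit left out the lysate too, although each lysate gave both fractions. Neither block changed any other member call. FBL in polysome against input RNA was called with the lysate block (0.96, adjusted p = 4.08e-11), also with the GC correction (0.60). With GC correction and the lysate block, DIMT1 stood at -0.27 and ZCCHC4 at -0.44, neither called, in polysome against input RNA.

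Signs turned only for values that were not called, except METTL5 in polysome against input RNA (0.17 with the GC correction, 0.15 with the block as well). NOP2 in that comparison became -0.094 and -0.097, and ranged from -0.055 to 0.25 with a library left out. NAT10 in polysome RNA became 0.010 with RLE scaling and with DESeq2, 0.048 with upper quartile scaling, 0.036 without the filter, 0.060 at 10 CPM, 0.037 with the polysome libraries alone, and ranged from -0.14 to 0.062 with a library left out. NSUN5 in polysome RNA became 0.056 with the GC correction. EMG1, in the difference between fractions, became 0.017 with RLE scaling and with DESeq2, 0.021 with upper quartile scaling, 0.043 without the filter, 0.042 at 10 CPM, 0.0089 with the GC correction and 0.0090 with the block as well, and ranged from -0.22 to 0.18 with a library left out. Left-out libraries gave -0.26 to 0.014 for NAT10 and -0.24 to 0.025 for DIMT1 in input RNA. In polysome RNA they gave -0.34 to 0.52 for DIMT1 and -0.085 to 0.52 for NOP2. In the difference they gave -0.031 to 0.29 for NAT10, -0.25 to 0.60 for DIMT1 and -0.041 to 0.19 for TRMT112. FBL in input RNA was 0.0036 with upper quartile scaling. It ranged from -1.03 to 0.91 in input RNA, -1.0 to 1.02 in polysome RNA and -0.99 to 1.10 in the difference.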

Other observations

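NSUN5 and its unprocessed pseudogene NSUN5P1, chosen after their values were seen, lay on opposite sides between polysome and input RNA. NSUN5P1 had 310 and 108 counts in polysome knockdown and 276 and 268 in polysome control libraries, against 482 and 646 counts in input knockdown and 563 and 572 in input control libraries. Its log2 fold change was -0.98 (edgeR adjusted p = 0.00327), beside 0.75 for NSUN5. Reads that match both copies could have been counted for either or left out of both. Reads set aside as not uniquely aligned made up 3.41% to 4.95% per library.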
